A study of Mus musculus with 4 samples.

Results

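The genes described here encode kinases of the PI3K, AKT and GSK3 pathway and the subunits that make up PI3K. They were chosen by symbol from 8 names, Gsk3a, Gsk3b, Akt1, Akt2, Pik3ca, Pik3cb, Pik3r1 and Mtor, among the 21578 genes of the deposited tables. Of these names, 7 were measured and Gsk3a was not analysed here. The choice rests on these names and on no threshold. All 7 passed the filter on low counts that left 15909 genes for testing.

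Brain endothelial cells of C57BL/6 mice at P0, the day of birth, were sorted by flow cytometry and their RNA was sequenced, with 2 libraries from Pd1fl/fl mice and 2 from Pd1cKO-Tie2 mice. Both genotypes carry loxP-flanked Pd1 alleles, and the Pd1cKO-Tie2 mice carry Tie2-Cre in addition. The Tie2 promoter is active in endothelial cells and also in blood-forming cells and some macrophages, so recombination is not limited to endothelium by the promoter alone. The sources used here do not say whether the libraries came from separate animals or how many animals each held, so p-values measure the spread between these libraries, which may be technical. Library numbers follow the table columns, and since 1 Pd1cKO-Tie2 column has a number found on no label, that library (replicate 2) is known by its genotype only.

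Class I PI3K is a pair of a catalytic and a regulatory subunit that converts a membrane lipid into PIP3 after receptors are engaged. PIP3 draws AKT to the membrane, where PDK1 and the mTOR complex 2 phosphorylate it, and AKT in turn phosphorylates and inhibits GSK3 and relieves the brake on mTOR complex 1. GSK3 also marks beta-catenin for degradation, which makes it a shared element of PI3K and Wnt signaling in brain vessels. PD-1 is known in T cells for dampening PI3K and AKT activity. Messenger RNA levels say nothing of the phosphorylation by which these kinases are switched.

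The promoters of 3 of these genes are shown here, because Gsk3b was the most abundant and steadiest of them, and Pik3cb and Pik3r1 were those whose Pd1cKO-Tie2 libraries both lay below both Pd1fl/fl libraries. The windows run from 250 bases before to 50 bases after the start site in RefSeq, on GRCm38.p6, and capitals mark 2 motifs on either strand. One is the CCAAT box, named by its letters. The other is the GC box, written GGGCGG.
Gsk3b, chr16:38088751-38089050, plus strand: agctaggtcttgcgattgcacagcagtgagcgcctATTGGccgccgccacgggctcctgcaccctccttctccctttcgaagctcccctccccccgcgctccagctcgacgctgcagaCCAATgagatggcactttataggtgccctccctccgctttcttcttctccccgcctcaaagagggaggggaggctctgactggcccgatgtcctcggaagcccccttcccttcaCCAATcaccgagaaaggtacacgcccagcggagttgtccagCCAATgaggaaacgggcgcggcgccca
Pik3cb, chr9:99140162-99140461, minus strand: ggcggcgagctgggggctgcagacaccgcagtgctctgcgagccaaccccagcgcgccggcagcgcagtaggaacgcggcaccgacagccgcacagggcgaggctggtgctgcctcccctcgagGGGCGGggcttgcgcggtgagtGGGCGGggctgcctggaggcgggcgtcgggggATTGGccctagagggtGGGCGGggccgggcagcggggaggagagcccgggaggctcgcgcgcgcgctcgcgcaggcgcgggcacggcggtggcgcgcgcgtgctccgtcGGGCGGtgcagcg
Pik3r1, chr13:101768168-101768467, minus strand: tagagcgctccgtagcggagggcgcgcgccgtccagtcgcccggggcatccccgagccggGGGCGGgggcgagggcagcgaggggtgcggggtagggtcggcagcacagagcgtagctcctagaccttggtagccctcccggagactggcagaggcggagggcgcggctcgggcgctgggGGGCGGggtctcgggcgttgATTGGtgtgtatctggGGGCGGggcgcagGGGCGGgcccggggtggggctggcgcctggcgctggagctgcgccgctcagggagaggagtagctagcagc
The Gsk3b window held 4 CCAAT matches and no GC box match. The Pik3cb window held 1 CCAAT and 4 GC box matches and the Pik3r1 window held 1 and 4. Of 32851 promoter windows in the same table, 37.4% held the CCAAT letters and 35.7% those of the GC box on either strand. The Pik3cb window had 44 CpG dinucleotides and that of Pik3r1 34, against 21 for Gsk3b and a median of 7 over all windows. Where a gene had more than 1 RefSeq window, the one with the most CpG dinucleotides was shown. The value for Pik3r1 is therefore high by choice. The start of Pik3cb in RefSeq lies 410 bases inside the gene's interval in the deposited tables, and Pik3r1 has another RefSeq start 75587 bases downstream, with 6 CpG dinucleotides in its window. Counts per gene do not show which start was used.

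Library depth ranged from 13715837 to 24147311 counts, the deepest being Pd1cKO-Tie2 replicate 1. Where a gene has 0 counts, up to 3 remain possible by counting error alone, or 0.125 to 0.219 CPM, the unit of level used here (counts scaled to a common library size by the TMM method). The targeted gene Pdcd1 was seen in Pd1fl/fl replicate 1 with 32 counts and had 0 counts elsewhere, which leaves its deletion unchecked in these libraries. The defining endothelial markers were abundant in every library, 12 genes that together reached 13836 and 12947 CPM in the Pd1fl/fl libraries, and 16800 and 17512 CPM with Tie2-Cre. Most of this sum was Cldn5 and Slc2a1, with means of 5134 and 3576 CPM in Pd1fl/fl. The lowest were Erg at 43.1 to 103 CPM and Slco1a4 at 32.7 to 75.9 CPM. Of the 12 genes, 11 were higher in both Pd1cKO-Tie2 libraries, beside 17.7% of all tested genes, and Slco1a4 overlapped. The 8 microglia and macrophage markers summed to 1822 and 2264 CPM in Pd1fl/fl and 684 and 1585 CPM in Pd1cKO-Tie2. The 8 radial glia and astrocyte markers summed to 962 and 1049 CPM against 672 and 504 CPM. The 5 T cell and pan-leukocyte markers, nearly all from Ptprc, summed to 91.3 and 138 CPM against 58.3 and 70.7 CPM. The sums of the pericyte, neuron, oligodendrocyte lineage, erythroid and neutrophil markers overlapped between genotypes. The pericyte and smooth muscle sum was mostly Rgs5. Of the 6 tested markers of that list 3, Pdgfrb, Vtn and Notch3, were lower in both Pd1cKO-Tie2 libraries, beside 18.1% of all tested genes, and 0 were higher. The neutrophil sum was 906 CPM in Pd1fl/fl replicate 1 and between 1.17 and 55.3 CPM in the other libraries. In bulk RNA, fewer cells of a type and less RNA per cell cannot be told apart.

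Gsk3b (ENSMUSG00000022812, chromosome 16 of GRCm38, 38089001 to 38246084) encodes GSK3 beta. By Western blot of endothelial cells, the study reports lower GSK3 beta protein, and less of a phosphorylated form, in Pd1cKO-Tie2 mice. Protein and RNA are different measures, and the comparison here asks whether the Gsk3b transcript differed. It was counted 6601 and 6241 times in the Pd1fl/fl libraries and 10629 and 6405 times in the Pd1cKO-Tie2 libraries. After scaling this was 457 and 439 CPM against 444 and 468 CPM. The genotypes overlapped, and the highest library was 1.07 times the lowest. Among all tested genes 0.409% had a smaller ratio of highest to lowest library, and the median ratio was 1.87 over the 13942 genes without a 0. Gsk3b ranked 288 in level among the tested genes, and counting error alone widens this ratio in genes with fewer counts. No comparison with genes of like level was made. The log2 fold change between Pd1cKO-Tie2 and Pd1fl/fl was 0.03 with an SE of 0.13 (edgeR quasi-likelihood test, adjusted p = 1). Its 95% interval ran from 0.816 to 1.27 in fold terms, so a 2-fold difference in either direction lay outside it. The 3 named genes whose levels over the 4 libraries were most like those of Gsk3b, by the root mean square difference of centred log2 CPM among 13537 genes, were Eif4ebp2 at 0.007, Dock9 at 0.011 and Knop1 at 0.014. Centred log2 CPM of Gsk3b ran only from -0.042 to 0.051, so the genes nearest to it were others that hardly varied. Shared regulation was not tested. Eif4ebp2, a repressor of cap-dependent translation that mTOR phosphorylates, also stood on a list of pathway genes used below.

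The kinases AKT1 and AKT2 carry the PI3K signal onward, and AKT2 is best known for its part in the insulin response. Akt1 (chromosome 12, 112653821 to 112674884) had 91.7 and 83.2 CPM in Pd1fl/fl and 100 and 80.8 CPM in Pd1cKO-Tie2. Akt2 (chromosome 7, 27591552 to 27640826) had 110 and 115 CPM against 130 and 110 CPM. In both genes replicate 1 of Pd1cKO-Tie2 was the highest of the 4 libraries, and the genotypes overlapped. The log2 fold change was 0.05 with an SE of 0.21 for Akt1 (adjusted p = 1) and 0.09 with an SE of 0.19 for Akt2 (adjusted p = 1), both by edgeR. Their 95% intervals, 0.717 to 1.5-fold and 0.77 to 1.47-fold, did not reach 2-fold. Stretches of 50 bases from Akt2 transcripts were shared with other genes in 9.76% of cases, mostly with Akt2-ps, which had 16 to 56 counts against 1499 to 3104 for Akt2, and reads could be split between them.

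Mtor, the kinase at the core of both mTOR complexes (chromosome 4, 148448611 to 148557683), had 48.8 and 63.1 CPM in Pd1fl/fl and 62.9 and 50.5 CPM in Pd1cKO-Tie2. Each genotype had a lower and a higher library and the ranges nearly coincided. Its log2 fold change was 0.02 with an SE of 0.26 (edgeR, adjusted p = 1). The 95% interval was 0.645 to 1.6-fold.

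The PI3K subunits gave the larger differences. Pik3cb encodes the catalytic subunit p110 beta, which can be engaged by G protein-coupled receptors as well as receptor tyrosine kinases. Pik3cb (chromosome 9, 99036654 to 99140621) was counted 142 and 116 times in Pd1fl/fl, then 130 times in the deepest library and 45 times in the other Pd1cKO-Tie2 library. Scaled, this was 9.83 and 8.15 CPM against 5.43 and 3.29 CPM. Both Pd1cKO-Tie2 libraries were below both Pd1fl/fl libraries, with replicate 2 of Pd1cKO-Tie2 the lowest. The log2 fold change was -1.04 with an SE of 0.64, a fold of 0.486 with a 95% interval from 0.159 to 1.49, and it did not pass the test (edgeR, adjusted p = 0.942). Of its 50-base stretches 5.19% occur in other genes, mostly in Gm12992, which was seen in Pd1fl/fl replicate 2 alone, with 15 counts. The named genes closest to Pik3cb in their pattern were Nbeal1 at a root mean square difference of 0.034, Hspa12a at 0.046 and Rorb at 0.050. Whether they share regulation with Pik3cb was not tested.

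Pik3r1 encodes the regulatory subunit p85 alpha and its shorter forms, which stabilize the catalytic subunits and hold them inactive until a receptor is bound. Pik3r1 (chromosome 13, 101680563 to 101768217) had 75.6 and 71.1 CPM in Pd1fl/fl and 63.9 and 50.9 CPM in Pd1cKO-Tie2, again with both Pd1cKO-Tie2 libraries below both Pd1fl/fl libraries. Its log2 fold change was -0.35 with an SE of 0.23 (edgeR, adjusted p = 0.949), and the 95% interval ran from 0.525 to 1.17-fold. Pik3ca (chromosome 3, 32397671 to 32468486), for the catalytic subunit p110 alpha that endothelial cells need for vessel growth, had 27.0 and 18.3 CPM against 28.6 and 23.5 CPM. These values overlapped, and Pd1fl/fl replicate 2 was the lowest. The log2 fold change of Pik3ca was 0.20 with an SE of 0.35 (edgeR, adjusted p = 1), with an interval of 0.627 to 2.12-fold that still holds a 2-fold rise.

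Of the 7 genes, 0 met the study's criterion of a fold change of at least 2 with p of 0.05 or less, which 4.02% of all tested genes met, 1.41% higher and 2.61% lower in Pd1cKO-Tie2. By edgeR 0 of 7 had an unadjusted p under 0.05, against 6.39% of all tested genes, and 0 had an adjusted p under 0.05, as was the case for 0% of all tested genes. At an adjusted p under 0.05 DESeq2 gave 0 of 7, against 0.528% of the 21578 genes it was run on. The genotypes did not overlap in 2 of 7 genes, both lower in Pd1cKO-Tie2, which is 28.6% beside 18.1% of all tested genes, and 0 of 7 were higher beside 17.7%. The median log2 fold change was 0.03 over the 7 genes and 0.00 over all tested genes. With library totals only these were -0.04 and -0.07, and without a single library the median of the 7 ranged from -0.10 to 0.18. Leaving out a single library moved the log2 fold change of Pik3cb between -1.44 and -0.72 and that of Pik3r1 between -0.52 and -0.19.

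**Figure D1:**
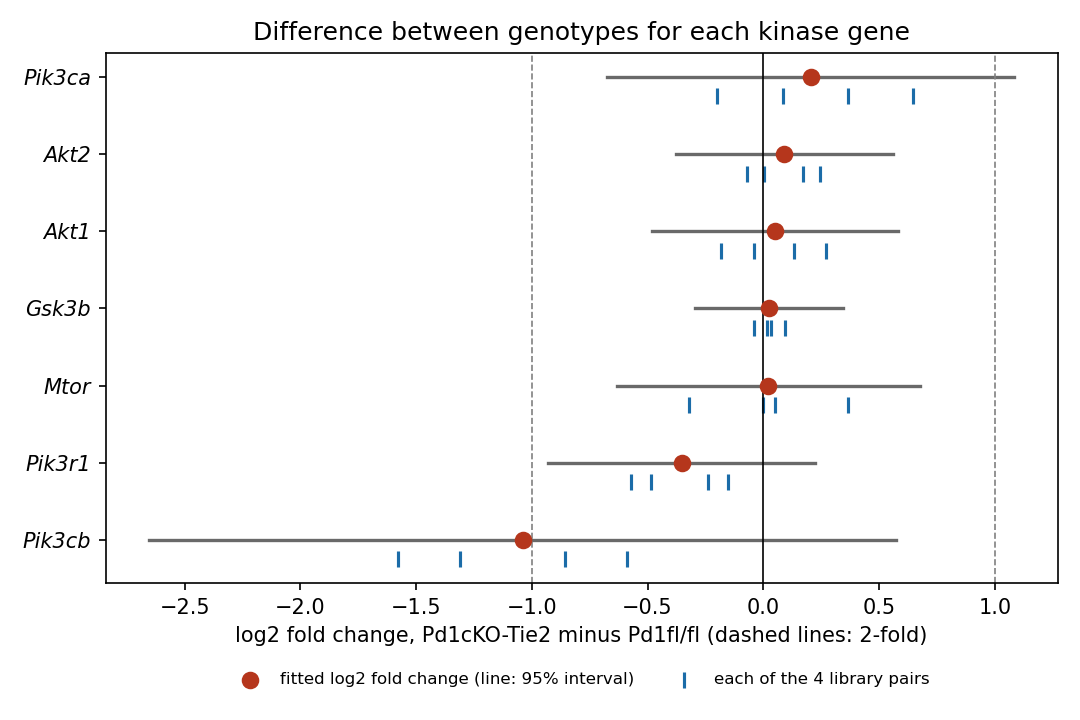
Fitted log2 fold change between Pd1cKO-Tie2 and Pd1fl/fl for each gene (red point) with its 95% interval (line), and the log2 ratio of CPM in each of the 4 pairs of 1 Pd1cKO-Tie2 and 1 Pd1fl/fl library (blue ticks, which share libraries). All 4 pairs were below 0 for Pik3cb (-1.58 to -0.59) and Pik3r1 (-0.57 to -0.15), all 7 intervals held 0, and those of Gsk3b, Akt1, Akt2, Pik3r1 and Mtor lay inside 2-fold in both directions.

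Levels of different genes were compared as CPM per kilobase of merged exon. Gsk3b stood highest with 45.6 ± 1.31 (SD, n = 2) in Pd1fl/fl and 46.4 ± 1.74 in Pd1cKO-Tie2. Akt1 followed with 21.3 ± 1.48 and 22.1 ± 3.40, and Akt2 with 15.8 ± 0.559 and 16.8 ± 1.99. Pik3r1 had 7.28 ± 0.312 and 5.70 ± 0.917, and Mtor 5.53 ± 0.997 and 5.61 ± 0.870 CPM per kilobase. The catalytic subunits were lowest, Pik3ca with 2.49 ± 0.679 and 2.87 ± 0.395 and Pik3cb with 1.25 ± 0.165 and 0.606 ± 0.210 CPM per kilobase. Pik3r1 and Mtor were neighbours whose ranges over the 4 libraries overlapped, and each other pair of neighbours was separate in all 4 libraries. The order rests on the length used, since per kilobase of coding sequence the mean of Akt2, 80.4, was above that of Akt1, 61.8, and the mean of Pik3ca, 7.60, was above that of Mtor, 7.37 CPM per kilobase.

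**Figure D2:**
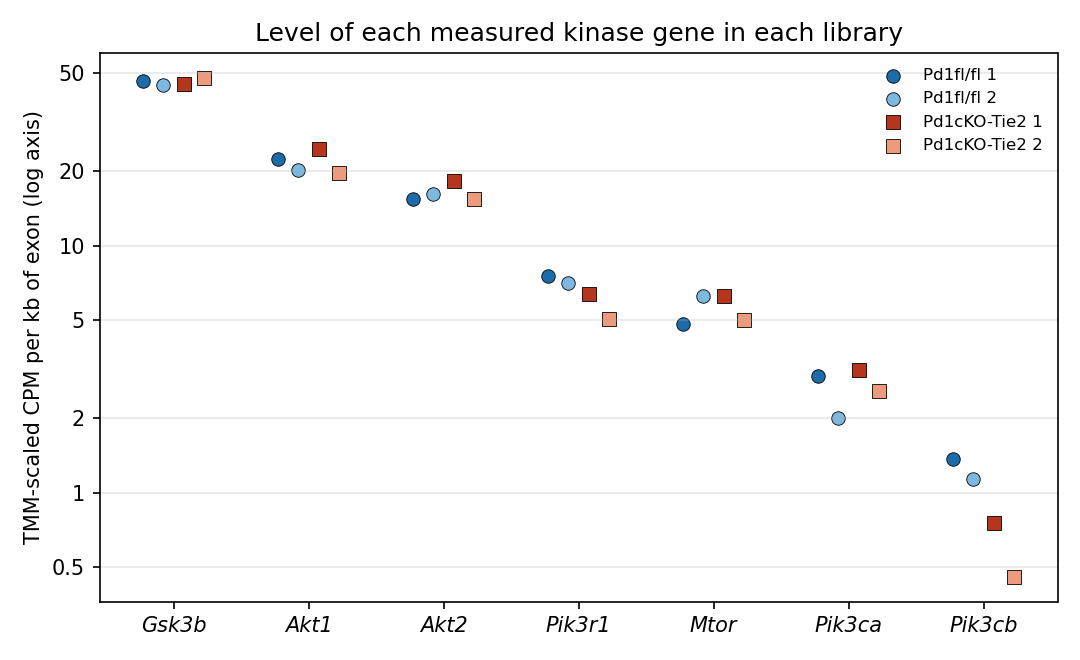
Level of each gene in each library, as TMM-scaled CPM per kilobase of merged exon on a log axis, with blue circles for Pd1fl/fl and red squares for Pd1cKO-Tie2. Gsk3b lies between 44.6 and 47.6 in all 4 libraries, and Pik3cb has 1.37 and 1.13 in Pd1fl/fl above 0.755 and 0.457 with Tie2-Cre.

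The balance between subunits was compared within each library as a log2 ratio of counts per exon length, which no scaling between libraries can shift. The ratio of Pik3ca to Pik3cb was 2.17 and 1.77 in the Pd1fl/fl libraries against 4.17 and 5.66 in the Pd1cKO-Tie2 libraries. Both Pd1cKO-Tie2 libraries were thus above both Pd1fl/fl libraries, and the log2 ratio differed by 1.31, from 0.97 ± 0.21 to 2.28 ± 0.31 (SD, n = 2). An exact two-sided permutation test over the 4 libraries gave p = 0.333, the smallest p that 2 against 2 allows, and 0.5 after adjustment over the 3 ratios. The ratio of Pik3r1 to the sum of both catalytic subunits was 1.73 and 2.24 against 1.63 and 1.66, a difference in log2 of -0.26 (exact permutation p = 0.333, adjusted p = 0.5) that ranged from -0.45 to -0.08 when a single library was left out. The ratio of Akt1 to Akt2 was 1.46 and 1.26 against 1.35 and 1.28, a difference of -0.04 with overlapping genotypes (exact permutation p = 1). The difference for Pik3ca to Pik3cb stayed between 1.09 and 1.53 when a single library was left out. It uses the same counts as the fold changes of Pik3ca and Pik3cb above, mainly repeats the lower Pik3cb, and is not a separate result.

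**Figure D3:**
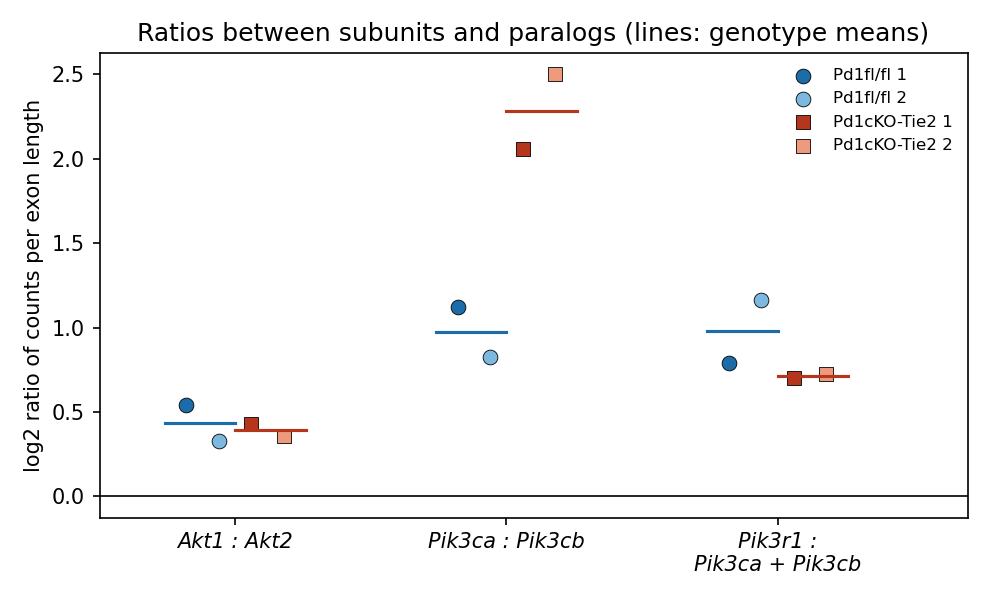
Log2 ratio of counts per exon length in each library for 3 pairs or groups of subunits, with short lines at the mean of each genotype. The Pik3ca to Pik3cb ratio stands at 1.12 and 0.83 in Pd1fl/fl, below the 2.06 and 2.50 of Pd1cKO-Tie2, and the Akt1 to Akt2 ratio lies between 0.33 and 0.54 in all libraries.

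The rest of the pathway was read from 7 lists with 67 genes, of which 66 were tested, leaving out Foxo6 with 0 to 2 counts. Of these, 1 gene was higher and 1 lower in Pd1cKO-Tie2 by the study's criterion, 3.03% beside 4.02% of all tested genes. Their median log2 fold change was 0.05, or -0.01 with library totals only. By edgeR 6 had an unadjusted p under 0.05, which is 9.09% beside 6.39% of all tested genes, and 0 an adjusted p under 0.05. In 17 of the 66, or 25.8%, both Pd1cKO-Tie2 libraries were above both Pd1fl/fl libraries, beside 17.7% of all tested genes. In 8, or 12.1%, both were below, beside 18.1%.

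Among 11 other PI3K subunits and partners, Pik3ap1 was lower. It encodes BCAP, an adaptor that links receptors of B cells and myeloid cells to PI3K, and it had 35.4 and 30.1 CPM in Pd1fl/fl and 10.9 and 10.5 CPM in Pd1cKO-Tie2. The Pd1cKO-Tie2 libraries were close to each other and far below the others, with a log2 fold change of -1.61 and an SE of 0.33 (edgeR, adjusted p = 0.735). The summed microglia and macrophage markers were lower too, at 0.555 times the Pd1fl/fl mean. So was the T cell and pan-leukocyte sum, which was nearly all Ptprc. The part of these markers' cells in the lower Pik3ap1 was not tested. Pik3r2, for the regulatory subunit p85 beta, had the lowest fold change of the list, with 7.34 and 6.11 CPM against 3.42 and 0.365 CPM, a log2 fold change of -1.81 with an SE of 1.19 (adjusted p = 0.949). Pik3c2b, a class II PI3K, had the highest at 0.82 with an SE of 0.80 (adjusted p = 1), and its libraries ranged up to 54.1 CPM with overlap. The median of the list was -0.06.

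Among 9 lipid and AKT phosphatases, Phlpp1 was higher. PHLPP1 removes the activating phosphate from the hydrophobic motif of AKT. It was counted 283 and 220 times in Pd1fl/fl and 1646 and 609 times in Pd1cKO-Tie2, or 19.6 and 15.5 CPM against 68.7 and 44.5 CPM. Even the lower Pd1cKO-Tie2 library was well above both Pd1fl/fl libraries, and the log2 fold change was 1.69 with an SE of 0.34 (edgeR, adjusted p = 0.735). DESeq2 over all genes with a count gave Phlpp1 a log2 fold change of 1.69 and an adjusted p of 0.0135, and Pik3ap1 -1.61 and 0.0848, where 0.528% of genes were under 0.05. The related Phlpp2 had 2.15 and 2.95 CPM against 6.85 and 5.92 CPM, without overlap, at a log2 fold change of 1.32 with an SE of 0.79 (edgeR, adjusted p = 0.933). Inpp5d, for the PIP3 phosphatase SHIP1 of blood cells and microglia, had the lowest fold change of the list, with 159 and 148 CPM against 94.9 and 94.5 CPM and a log2 fold change of -0.70 with an SE of 0.17 (adjusted p = 0.735). The median of the list was 0.10.

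Of 7 genes for the insulin and IGF receptors and their adaptors, 0 passed the criterion and 0 had an unadjusted p under 0.05 by edgeR. Both Pd1cKO-Tie2 libraries were above both Pd1fl/fl libraries in 5 of 7 genes, Insr, Igf1r, Gab1, Gab2 and Grb10, which is 71.4% beside 17.7% of all tested genes, and in 4 of 7 after RLE scaling or with library totals only. The median log2 fold change was 0.28. Igf1r, the receptor for IGF1, had 374 and 514 CPM against 584 and 557 CPM (log2 fold change 0.36 with an SE of 0.18, edgeR, adjusted p = 0.901). The lowest fold change was that of Irs1 at -0.04 (adjusted p = 1) and the highest that of Irs2 at 0.67 (adjusted p = 1). The summed endothelial markers in Pd1cKO-Tie2 were 1.28 times the Pd1fl/fl mean, and their part in these values was not tested.

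Of 7 genes for PDK1 and the mTOR complexes, 0 passed, with Rptor lowest at -0.32 (adjusted p = 1), Mapkap1 highest at 0.28 (adjusted p = 1) and a median of 0.04, or -0.02 with library totals only. Rptor is the scaffold of mTOR complex 1 and Mapkap1 encodes a component of mTOR complex 2. Of 13 genes of the TSC, RHEB and translation branch 0 passed, with a median of 0.03, or -0.035 with library totals only. The stress-induced sestrins held both ends, Sesn3 at -0.55 (adjusted p = 1) and Sesn2 at 0.47 (adjusted p = 1). Their 95% intervals, 0.279 to 1.68-fold for Sesn3 and 0.47 to 4.05-fold for Sesn2, did not leave out a 2-fold difference. In either list 0 genes had both Pd1cKO-Tie2 libraries above both Pd1fl/fl libraries, beside 17.7% of all tested genes. Lower in both were 1 of the 7 and 2 of the 13, beside 18.1%.

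Among 8 tested targets of AKT 0 passed the criterion. They include the FOXO transcription factors, which AKT keeps out of the nucleus. Foxo4 was counted 4 and 7 times in Pd1fl/fl and 58 and 22 times in Pd1cKO-Tie2, a log2 fold change of 2.37 with an SE of 1.43 (edgeR, adjusted p = 0.937). Foxo3 had 7.61 and 9.21 CPM against 11.6 and 18.2 CPM and Foxo1 18.5 and 13.6 CPM against 26.6 and 19.8 CPM. These 3 genes and Nos3, the endothelial nitric oxide synthase that AKT activates, were the 4 of 8 tested substrates whose Pd1cKO-Tie2 libraries were both above both Pd1fl/fl libraries, which 17.7% of all tested genes were. Mdm2, which restrains p53, had the lowest fold change at -0.25 (adjusted p = 0.991), and the median of the list was 0.24.

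Of 11 GSK3 partners, scaffolds and substrates 0 passed, with a median of 0.06, or 0.005 with library totals only. Frat2, which binds GSK3 and draws it away from the beta-catenin destruction complex, was highest, with 25 and 19 counts for Pd1fl/fl against 74 and 144 counts for Pd1cKO-Tie2 and a log2 fold change of 2.14 with an SE of 0.99 (edgeR, adjusted p = 0.858). Without Pd1cKO-Tie2 replicate 2 the log2 fold change of Frat2 was 1.01, and it met the criterion without Pd1cKO-Tie2 replicate 1, at 2.78, and when at least 10 counts were asked of every library, at 2.13. Its paralog Frat1 had 43.3 and 53.4 CPM against 41.3 and 40.8 CPM, lower in both Pd1cKO-Tie2 libraries. Ctnnb1, for beta-catenin, had 302 and 227 CPM against 364 and 268 CPM with overlap (log2 fold change 0.26, adjusted p = 0.999), and 14.6% of its exon bases overlap Ulk4 on the other strand. Csnk1a1, the casein kinase that primes beta-catenin for GSK3, had 739 and 715 CPM against 890 and 986 CPM, a log2 fold change of 0.37 with an SE of 0.12 (adjusted p = 0.735). The lowest fold change was that of Gskip, a GSK3-binding protein, at -0.28 (adjusted p = 1). Use of strand in counting is not given in the sources used here, and exons on the other strand also overlap 25.2% of the exon bases of Nos3 (Gm15587), 30.9% of Irs1 (Gm9747) and 8.89% of Gskip (Atg2b), while the 7 kinase and subunit genes share exon bases with no other gene.

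**Figure D4:**
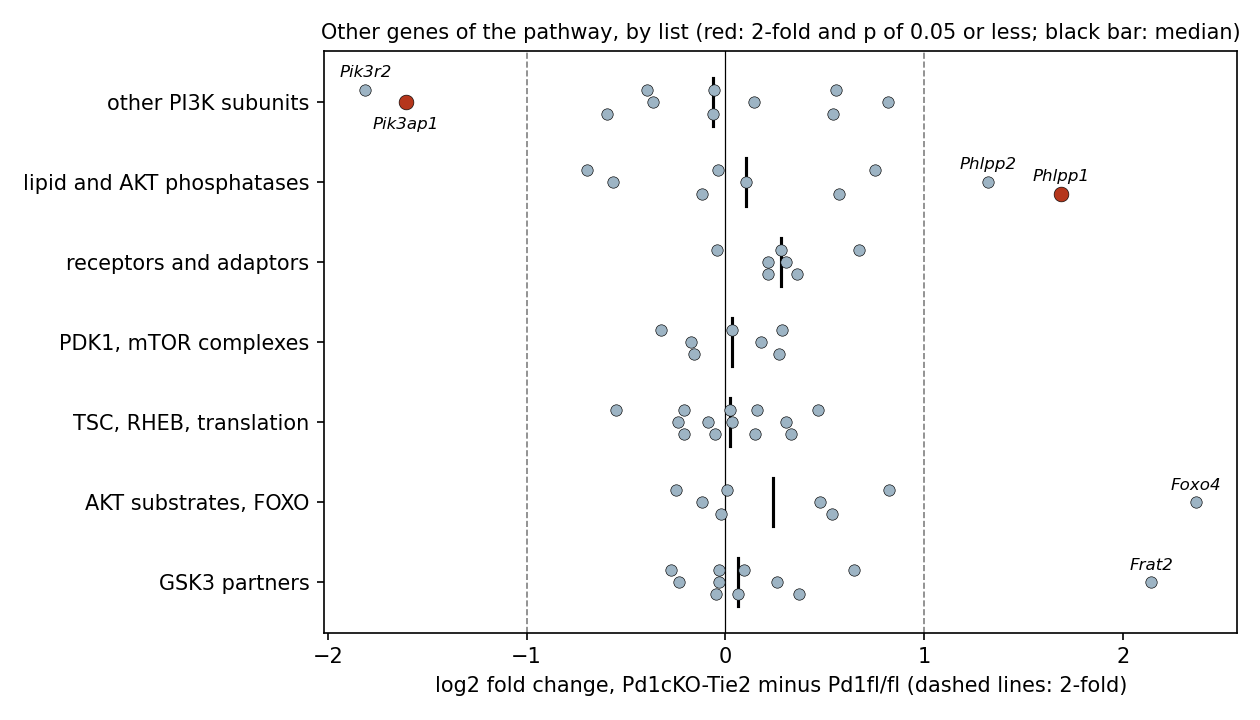
Log2 fold change of each tested gene of the 7 pathway lists, with black bars at list medians and red points for the 2 genes that met the criterion, Pik3ap1 at -1.61 and Phlpp1 at 1.69. Foxo4, Frat2, Pik3r2 and Phlpp2 lie beyond the 2-fold lines without meeting it.

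The deposited annotation offers a wider list, the 143 genes with a Gene Ontology term for PI3K, phosphatidylinositol-mediated, protein kinase B or TOR signaling. Of the 122 that were tested, 6 met the criterion, all lower in Pd1cKO-Tie2, which is 4.92% beside 2.61% of all tested genes for that direction, and 0 were higher beside 1.41%. The median log2 fold change of the list was -0.05. Of the 26 tested TOR signaling genes 0 met it.

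Most of these 6 genes are known from leukocytes or macrophages. Mertk, a receptor by which macrophages and microglia take up dying cells, had 21.4 and 21.2 CPM in Pd1fl/fl and 7.56 and 6.72 CPM in Pd1cKO-Tie2 (log2 fold change -1.57 with an SE of 0.40, edgeR, adjusted p = 0.735). Adora3, an adenosine receptor, had 14.4 and 13.1 CPM against 3.88 and 4.53 CPM (adjusted p = 0.735), and Ptafr, the receptor for platelet-activating factor, 22.8 and 35.1 CPM against 5.14 and 9.65 CPM (adjusted p = 0.735). Il1b, the cytokine interleukin 1 beta, was counted 58 and 70 times in Pd1fl/fl and 0 times in both Pd1cKO-Tie2 libraries (edgeR, adjusted p = 0.735). Its Pd1fl/fl mean was 25.9 times the level that 3 counts per Pd1cKO-Tie2 library would give, with no allowance for error in the Pd1fl/fl counts. Plce1, a phospholipase C, had 20.3 and 16.1 CPM against 5.01 and 7.46 CPM (adjusted p = 0.735), and Nyap2, a neuronal adaptor that binds PI3K, 9.28 and 18.4 CPM against 1.67 and 3.95 CPM (adjusted p = 0.735).

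In all 6, as in Pik3ap1 and Inpp5d, both Pd1cKO-Tie2 libraries lay below both Pd1fl/fl libraries. These genes were named for their lower values, which largely sets this result in advance. Of the microglia and macrophage markers, 6 of 8 were lower in both Pd1cKO-Tie2 libraries, beside 18.1% of all tested genes. Of these 8 markers, 0 were at 0 in any library. Csf1r, the receptor by which these cells survive, had 507 and 619 CPM against 234 and 433 CPM. The marker sum was lower in replicate 1 of Pd1cKO-Tie2 (684 CPM) than in replicate 2 (1585 CPM). Adora3, Plce1, Nyap2 and Ptafr were also lower in replicate 1, Pik3ap1, Mertk and Inpp5d were slightly higher there, and Il1b had 0 counts in both. The radial glia and astrocyte markers moved in the same direction, with 6 of 8 lower in both Pd1cKO-Tie2 libraries and a sum of 0.585 times the Pd1fl/fl mean, as did the sum of the T cell and pan-leukocyte markers at 0.561 times. Nearly all of that last sum was Ptprc, which encodes CD45, with 86.2 and 138 CPM against 54.5 and 67.8 CPM. Cd3e, Cd3d, Cd3g and Cd2 were each at 0 in some library, so the sum says little of T cells. For cultured brain endothelial cells the study describes labelling CD31 and CD45 before the sort, and whether the same gate was used for these libraries is not given in the sources used here. The part of any of these cells in the lower values was not tested.

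**Figure D5:**
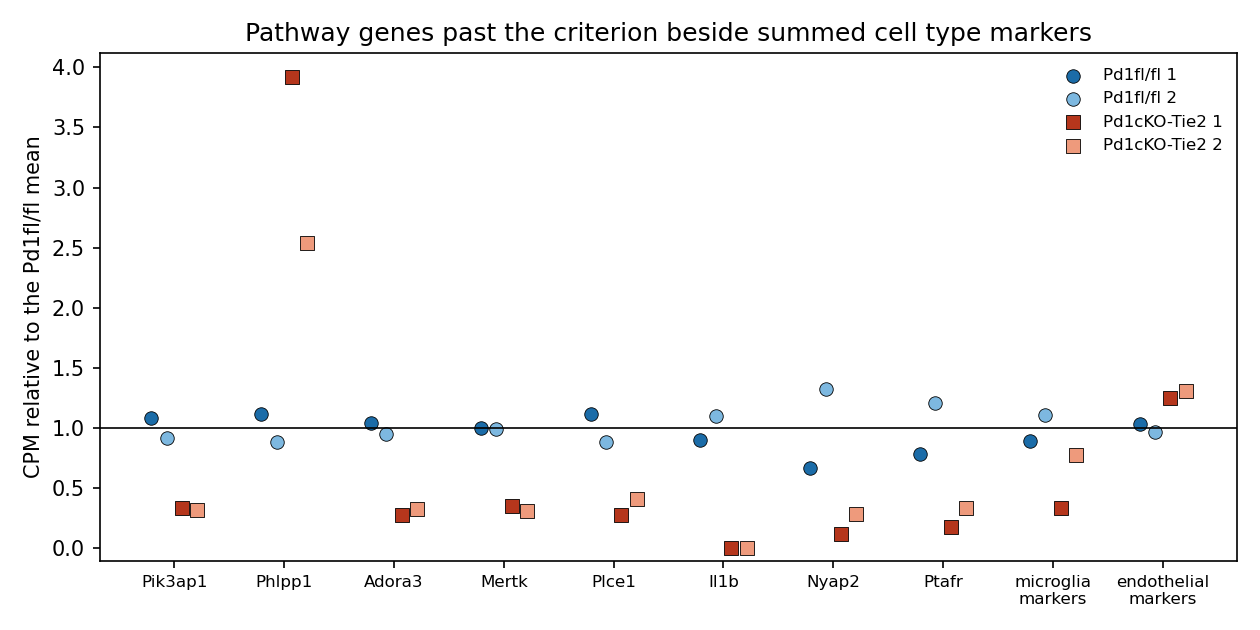
Level in each library relative to the Pd1fl/fl mean for the 8 pathway genes that met the criterion and, at the right, for the summed microglia and endothelial markers. Phlpp1 is the gene above 1 in both Pd1cKO-Tie2 libraries. The 7 others are below 0.5 there, which the 2-fold criterion largely sets in advance. Endothelial marker sums lie above 1 and microglia marker sums below 1 in those libraries.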

How the data were processed

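The 4 libraries were sequenced on an Illumina HiSeq 2500. The submitters' notes name TopHat2 2.0.12, Bowtie2 2.2.3, HTSeq 0.6.0 and mm9 without roles, whereas 90% of gene positions in the tables equal GENCODE M21 on GRCm38, and use of strand is not given in the sources used here. The authors deposited 4 tables of 1 library pair each, with raw counts per gene and CPM. The CPM values deposited by the authors served only to recover library totals. Their fold changes and p-values were not used, and 5 broken lines in 2 tables were skipped. Genes absent from a library's tables were taken as 0, a loss of 0.0107% of counts or less.

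Counts were tested with edgeR 4.0.16 (R 4.3.3), using filterByExpr, TMM scaling and the quasi-likelihood F test, with Benjamini-Hochberg adjustment over 15909 genes. The biological coefficient of variation shared by all genes was 0.61. SE is the log2 fold change over the square root of F, and 95% intervals come from inverting the test. The scripts were tested on simulated data. The genes, lists and rules were chosen with earlier results of these data known. Named were all 7 genes, pathway genes meeting the criterion, the largest rise and fall of each list, and the 3 genes most like Gsk3b and Pik3cb in centred log2 CPM (prior count 2), passing over predicted genes, pseudogenes and genes with no symbol. Phlpp2, Igf1r, Foxo1, Foxo3, Nos3, Frat1, Ctnnb1, Csnk1a1 and other pathway or marker genes were named after their values were seen. Some genes of the pathway lists are not reported here and were left out of the list counts. Alternatives were DESeq2 1.42.0, RLE scaling, library totals, no filter, a filter of 10 counts, and leaving out each library.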

Additional observations from a re-analysis of the deposited data

How the results depend on the processing

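Over 9 alternatives for each of the 7 genes, 52 of 63 log2 fold changes kept the direction and 11 changed it, and the smallest p was 0.125. Pik3cb and Pik3r1 kept their direction in all of them. With library totals only, the values were -0.0353 for Gsk3b, -0.0065 for Akt1 and -0.041 for Mtor. With 1 library left out they ranged from -0.0081 to 0.0738 for Gsk3b, -0.10 to 0.20 for Akt1, -0.026 to 0.211 for Akt2, -0.0474 to 0.516 for Pik3ca and -0.15 to 0.22 for Mtor. The difference in the Akt1 to Akt2 log2 ratio ranged from -0.148 to 0.0655 and turned positive without Pd1fl/fl replicate 1. The number of genes whose genotypes did not overlap was 4 to 6 with 1 library left out, beside 64.0% to 66.2% of all tested genes, since fewer libraries make overlap less likely, and 3 with library totals only, beside 35.8%. Pathway genes meeting the criterion numbered 2 to 5 with 1 library left out, the 5 without Pd1cKO-Tie2 replicate 1, and 3 with at least 10 counts in every library. Pik3ap1 and Phlpp1 met it under all alternatives run. All tested genes meeting it numbered 480 to 936 over the alternatives. With 1 library left out, the lone library of a genotype was assumed to vary like the others. At an adjusted p under 0.05 DESeq2 called 114 genes of 21578, and edgeR 0. The ratio of Gsk3b to Gsk3a was planned and not run. No paired analysis was possible because the genotypes share only the number 1 in the labels. Pik3cb, with 45 to 142 counts, had the widest interval of the 7 genes.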
